A study of Mus musculus with 6 samples.

Results

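Aminoacyl-tRNA synthetases were taken as the protein-coding genes of the deposited count table whose symbol is 1 capital letter followed by "ars", with or without a closing 1, 2 or 3, together with Eprs, Farsa and Farsb. This rule on names found 37 genes among the 56748 in the table. The 17 whose names end in 2 are the mitochondrial enzymes, and the other 20 are called cytosolic here. Gars and Kars, counted as cytosolic, each encode the enzyme of both compartments. The rule does not take Tarsl2, a threonyl-tRNA synthetase-like gene, which is given separately.

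Each synthetase joins 1 amino acid to its own transfer RNA (tRNA), using ATP, and so sets which amino acid a codon receives on the ribosome. The cytosolic enzymes supply translation of nuclear genes, and part of them sit in the multisynthetase complex, held together by the scaffold proteins Aimp1, Aimp2 and Eef1e1. The mitochondrial enzymes are also encoded in the nucleus, are imported, and charge the tRNAs that read the few mRNAs of the mitochondrial genome. The enzymes fall into class I and class II by the fold of the catalytic domain. Several cytosolic synthetase genes are known targets of ATF4, the transcription factor of the amino acid response, and of MYC.

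Bulk RNA-seq was run on mouse MLL-AF9 leukemia, driven by a fusion of MLL and AF9, in 3 libraries labelled wild type (numbers 25, 27 and 29) and 3 labelled Rbm5 knockout (31, 32 and 40). Both groups carry MLL-AF9, no other allele, treatment, age or time is named, and the way the knockout was made was not stated in the labels. The tissue is bone marrow, and the protocol speaks of whole marrow in one sentence and of cultured cells in another, with 3 biological replicates whose animals are not identified. Totals were 26359299 to 31807588 counts per library, so the synthetase with the fewest reads, at 151 counts in its lowest library, was still well above the filter on low counts.

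Several measured facts bear on every comparison below. Rbm5, an RNA-binding splicing regulator, was no lower under the knockout label: its level was 227.5, 214.1 and 173.6 CPM (counts relative to library size, scaled by TMM) in wild type and 269.0, 266.7 and 245.3 in knockout. Its log2 fold change was 0.34 (edgeR adjusted p = 0.107), so "knockout" below means the label of the library, and counts over the whole gene cannot show an exon deletion. The Y-linked gene Ddx3y had 0 counts in each wild-type library and 2645 to 3311 in the knockout libraries, so sex and label cannot be told apart. Mature neutrophil markers summed to 603.9 to 2242 CPM in wild type and 8504 to 15380 CPM in knockout, and monocyte and macrophage markers to 1022 to 1595 and 2732 to 4754 CPM. Of these, 6 of 10 neutrophil and 3 of 8 monocyte markers rose by edgeR's test, and all 10 neutrophil markers lay above wild type without overlap. Across all 15963 genes tested, 5.45% rose, 3.12% fell and 17.2% lay above wild type without overlap. Of 8 erythroid, 6 B cell and 6 T and NK cell markers, 4, 3 and 4 had enough counts to be tested, and of these 1 erythroid marker, Hbb-bs, rose (log2 fold change 3.09, edgeR adjusted p = 0.0238), at a mean of 1.01 CPM in knockout. Erythroid markers summed to no more than 4.69 CPM in any library, B cell markers to 76.4 to 187.2 CPM and T and NK cell markers to 18.4 to 63.8 CPM. Megakaryocyte markers summed to 9.83 to 20.2 CPM, and 1 of 4, Gp9, rose (log2 fold change 1.59, edgeR adjusted p = 0.0323). Of 8 myeloid leukemia and progenitor markers, 2 rose, Itgam and Spi1 (log2 fold changes 1.03 and 0.43), and 1, Hoxa9, fell. Kit, Cd34, Myb and Meis1 had negative log2 fold changes and Mpo a positive one, and none of these passed edgeR's test. Hoxa9 lies on chromosome 6, many of whose genes were higher in wild-type libraries 27 and 29 (values beside Gars), and against library 25 alone its log2 fold change was -1.72, beside -1.20 with all libraries. The part of cell composition in the synthetase values was not tested, and fewer cells of a type cannot be told apart from less RNA per cell in bulk samples. All p-values measure the spread between these 6 libraries.

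Promoter sequence is shown first because ATF4 and MYC are the factors best known at these genes, and because members differed in whether the letters of their sites are there. RefSeq promoters (GRCm38.p6, 250 bases before to 50 after the start) were found for 27 of the 37 members, 13 cytosolic and 14 mitochondrial, with 28 promoters in all. The core of the amino acid response element, to which ATF4 binds together with a C/EBP protein, was searched on both strands as TGATGNAA, which reads TTNCATCA on the other strand. It stood in 5 of the 13 cytosolic genes (Aars, Gars, Iars, Tars and Yars) and in 0 of the 14 mitochondrial genes. Of all 32851 promoters of this length 3.97% hold it, or 4.51% of 27025 genes. Each window below has 30 bases, 5′ to 3′ on the strand of the gene, with the match in capitals. The element is given for each cytosolic gene that holds it, the match in Aars nearest to its start being chosen among those 2.
Gars, chr6:55037960-55037989, plus strand: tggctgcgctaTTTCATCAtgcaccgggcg
Tars, chr15:11399655-11399684, minus strand: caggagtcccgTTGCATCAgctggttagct
Aars, chr8:111033840-111033869, plus strand: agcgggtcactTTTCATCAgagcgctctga
Iars, chr13:49682126-49682155, plus strand: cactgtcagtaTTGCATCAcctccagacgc
Yars, chr4:129189895-129189924, plus strand: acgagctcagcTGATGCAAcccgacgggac
The first base of the match lay 30 bases before the start in Gars and 15 before it in Tars, and at position 10 in Aars, 8 in Iars and 4 in Yars, counted from the start. In the matches shown, the letters are the same in Tars and Iars, TTGCATCA, and Gars and Aars share TTTCATCA. The other match in Aars, 112 bases before its start, also reads TTGCATCA, as does that of Yars on the opposite strand. Only Yars among the 5 carries the element in the orientation of the gene.

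The E-box CACGTG, bound by MYC with MAX, reads the same on both strands. It stood in 4 of the 13 cytosolic genes (Aars, Farsb, Iars and Tars) and in 1 of the 14 mitochondrial genes, Ears2, against 7.15% of all promoters and 8.09% of genes. It overlapped the amino acid response element in none of the members that hold both. The windows of Ears2, Farsb and Tars are shown because these genes recur in the results, again with the match in capitals.
Ears2, chr7:122067048-122067077, minus strand: cgcgaaggagccCACGTGtgtgtttctagt
Farsb, chr1:78488919-78488948, minus strand: ttagacaggcatCACGTGagacagcccaag
Tars, chr15:11399622-11399651, minus strand: tccgcctgtggcCACGTGgcgcacgcgcag
The match begins at position 22 in Ears2, 39 bases before the start in Farsb and at position 20 in Tars. Gars and Ears2 were the only members that passed the test between groups, and the 100 bases before their starts are given for comparison, with the element of Gars in capitals.
Gars, chr6:55037901-55038000, plus strand: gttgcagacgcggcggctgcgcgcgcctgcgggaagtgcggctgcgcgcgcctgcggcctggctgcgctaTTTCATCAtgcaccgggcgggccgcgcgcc
Ears2, chr7:122067087-122067186, minus strand: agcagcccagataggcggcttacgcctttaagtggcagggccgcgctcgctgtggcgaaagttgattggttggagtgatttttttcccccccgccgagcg
Neither motif stands in the 100 bases of Ears2. A match is a run of letters and says nothing of binding in these cells.

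The libraries labelled knockout had less synthetase mRNA than wild type, and the difference for single genes was small. Of the 37 members, 2 fell by edgeR's test, the mitochondrial glutamyl-tRNA synthetase Ears2 and the glycyl-tRNA synthetase Gars, and 0 rose. Across all 15963 genes tested, 3.12% fell and 5.45% rose, so 2 of 37 (5.41%) is close to the background share. At an unadjusted edgeR p under 0.05 there were 14 of 37 members (37.8%), all with a negative log2 fold change. In either direction this held for 26.9% of all genes tested, and for 31.6% of those whose mean level lay within the members' range. In 17 of 37 members (45.9%) every knockout library lay below every wild-type library, and in 0 every one lay above. The same lower pattern held for 16.5% of all genes tested, and for 18.1% of the 9193 genes whose mean level lay within the members' range. A negative log2 fold change was found for 33 of 37 members, against 51.2% of all genes, and the median was -0.20 against -0.01. Synthetase mRNA took 0.384%, 0.355% and 0.368% of all counts in libraries 25, 27 and 29, which are wild type. The share was 0.303%, 0.320% and 0.267% in knockout libraries 31, 32 and 40. Each knockout library was below each wild-type library in this share, and library 40 was the lowest.

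**Figure D1:**
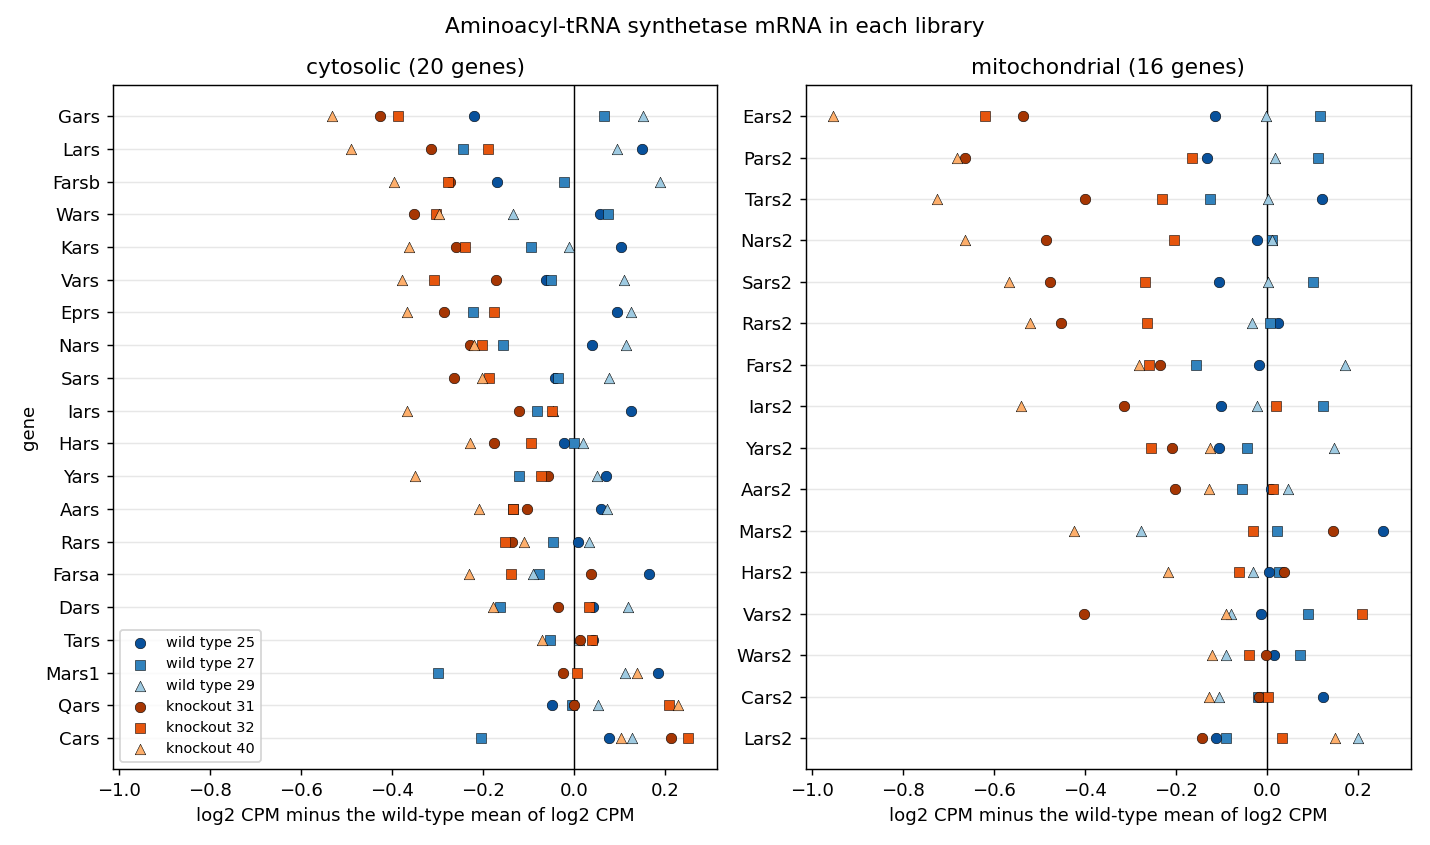
Each point is 1 library, and the x axis gives the log2 CPM of a gene minus its mean over the wild-type libraries (blue), for 20 cytosolic and 16 mitochondrial genes on the y axis, with knockout libraries in orange. Knockout library 40 (light orange triangles) is the lowest knockout library for 14 of the 20 cytosolic and 12 of the 16 mitochondrial genes shown.

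Ears2, which charges the mitochondrial tRNA for glutamate, had the most negative log2 fold change of all members. Its level was 17.7, 20.8 and 19.1 CPM in wild type and 13.2, 12.5 and 9.89 CPM in knockout. The groups did not overlap, and the lowest wild-type library was above the highest knockout library by more than the SD of either group. The means were 19.2 ± 1.55 and 11.9 ± 1.74 CPM (SD, n = 3 each), a log2 fold change of -0.69 ± 0.17 (SE, 95% interval -1.08 to -0.31; edgeR adjusted p = 0.0436). Without any 1 of the 6 libraries the edgeR adjusted p ranged from 0.0701 to 0.127, so the call held only with all 6. The table places Ears2 (ENSMUSG00000030871) on chromosome 7 from 121636436 to 121666486 on the minus strand, where its end shares 89 bases with Ubfd1 on the opposite strand. Ubfd1 had 366% of the count of Ears2 and a log2 fold change of -0.14 (edgeR adjusted p = 0.436), and the labels do not say whether the counting used strand.

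Gars, which charges glycine tRNA in both compartments, had 153.6, 187.5 and 199.0 CPM in wild type and 133.1, 136.8 and 123.8 CPM in knockout. All knockout libraries were below all wild-type libraries, with wild-type library 25 much nearer to them than 27 and 29. The means were 180 ± 23.6 and 131 ± 6.71 CPM, a log2 fold change of -0.46 ± 0.11 (SE, 95% interval -0.72 to -0.19; edgeR adjusted p = 0.0469). Gars (ENSMUSG00000029777) lies on chromosome 6, from 55014992 to 55056485 on the plus strand in the table. In wild-type libraries 27 and 29 the 390 genes of that chromosome at a mean log2 CPM above 4 were higher than in the other 4 libraries by a median of 0.36 on the log2 scale, against -0.02 for the 7784 such genes elsewhere and 0.50 for Gars. Against library 25 alone the log2 fold change of Gars was -0.24 (edgeR adjusted p = 0.421, with that single library assumed to vary like the others). The part of this chromosome-wide difference in the value of Gars was not tested. When 1 library was left out Gars passed only without wild-type library 25, and its edgeR adjusted p reached 0.156 without knockout library 40.

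Among the other cytosolic enzymes, no gene passed the test, and those with the largest differences charge leucine, phenylalanine, tryptophan and lysine. Wars, the tryptophanyl enzyme, which interferon-gamma is known to induce, had 72.5, 73.3 and 63.5 CPM in wild type and 54.6, 56.4 and 56.7 CPM in knockout. The knockout libraries lay close together and below every wild-type library. The log2 fold change was -0.32 (95% interval -0.54 to -0.10; edgeR adjusted p = 0.0755). Kars, the lysyl enzyme of both compartments and a member of the multisynthetase complex, had 208.7, 182.1 and 192.8 CPM in wild type and 162.2, 164.6 and 151.0 CPM in knockout. Its groups did not overlap either, with a log2 fold change of -0.29 (95% interval -0.50 to -0.08; edgeR adjusted p = 0.0887). Farsb, the beta subunit of the phenylalanyl enzyme, had 59.8, 66.2 and 76.7 CPM against 55.6, 55.4 and 51.1 CPM. Wild-type library 25 was nearest to the knockout libraries, as for Gars, and the log2 fold change was -0.32 (edgeR adjusted p = 0.118). Farsa, the alpha subunit of the same enzyme, had a log2 fold change of -0.11 (edgeR adjusted p = 0.569), with overlapping groups. Lars, the leucyl enzyme, which is also known as a leucine sensor for mTORC1, had 147.9, 112.5 and 142.3 CPM in wild type and 107.2, 116.9 and 94.9 CPM in knockout. Wild-type library 27 lay below knockout library 32, and the log2 fold change was -0.34 (edgeR adjusted p = 0.145).

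Vars, the valyl enzyme, had the highest CPM of all members, 403.4, 405.9 and 454.2 in wild type and 373.7, 339.6 and 323.5 in knockout. Its groups did not overlap, and its log2 fold change was -0.29 (edgeR adjusted p = 0.114). Nars, Sars, Hars and Rars, which charge asparagine, serine, histidine and arginine, were also below wild type without overlap, at log2 fold changes of -0.22, -0.22, -0.16 and -0.13. Eprs, the fused enzyme for glutamate and proline, was at -0.28 with overlapping groups. Iars, Yars, Aars and Dars lay between -0.18 and -0.06, also with overlap. Of the 9 cytosolic genes without overlap 7 are outside the multisynthetase complex, among 12 such genes, and 2, Kars and Rars, are in it, among 8. These are shares of 58.3% and 25%, beside 16.5% of all genes tested, and the difference between them was not tested. The median log2 fold change was -0.15 in the complex and -0.19 outside it.

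The threonyl enzyme Tars differed least, with 98.3, 92.1 and 96.3 CPM in wild type and 96.5, 98.2 and 91.0 CPM in knockout. Its log2 fold change was -0.0050, with a 95% interval of -0.20 to 0.19, and its sign changed with the scaling and with the library left out. The glutaminyl enzyme Qars, whose gene lies on chromosome 9 like Rbm5, had 135.9, 140.1 and 145.7 CPM in wild type and 140.5, 162.5 and 164.6 CPM in knockout. Libraries 32 and 40 were above all wild-type libraries and library 31 was not, and the log2 fold change was 0.15 (95% interval -0.07 to 0.37; edgeR adjusted p = 0.351). Cars, the cysteinyl enzyme, had the highest log2 fold change of the members, 0.18 (95% interval -0.09 to 0.46; edgeR adjusted p = 0.366), from 39.6, 32.6 and 41.0 CPM to 43.6, 44.7 and 40.3 CPM. Mars1, the methionyl enzyme, was at 0.03 and turned to -0.10 when only total counts were used for scaling. It shares 68 bases with Ddit3, on the opposite strand, which had 44.8% of its count and a log2 fold change of 1.07 (edgeR adjusted p = 0.245). Tarsl2, outside the rule, was at -0.02 (edgeR adjusted p = 0.944).

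**Figure D2:**
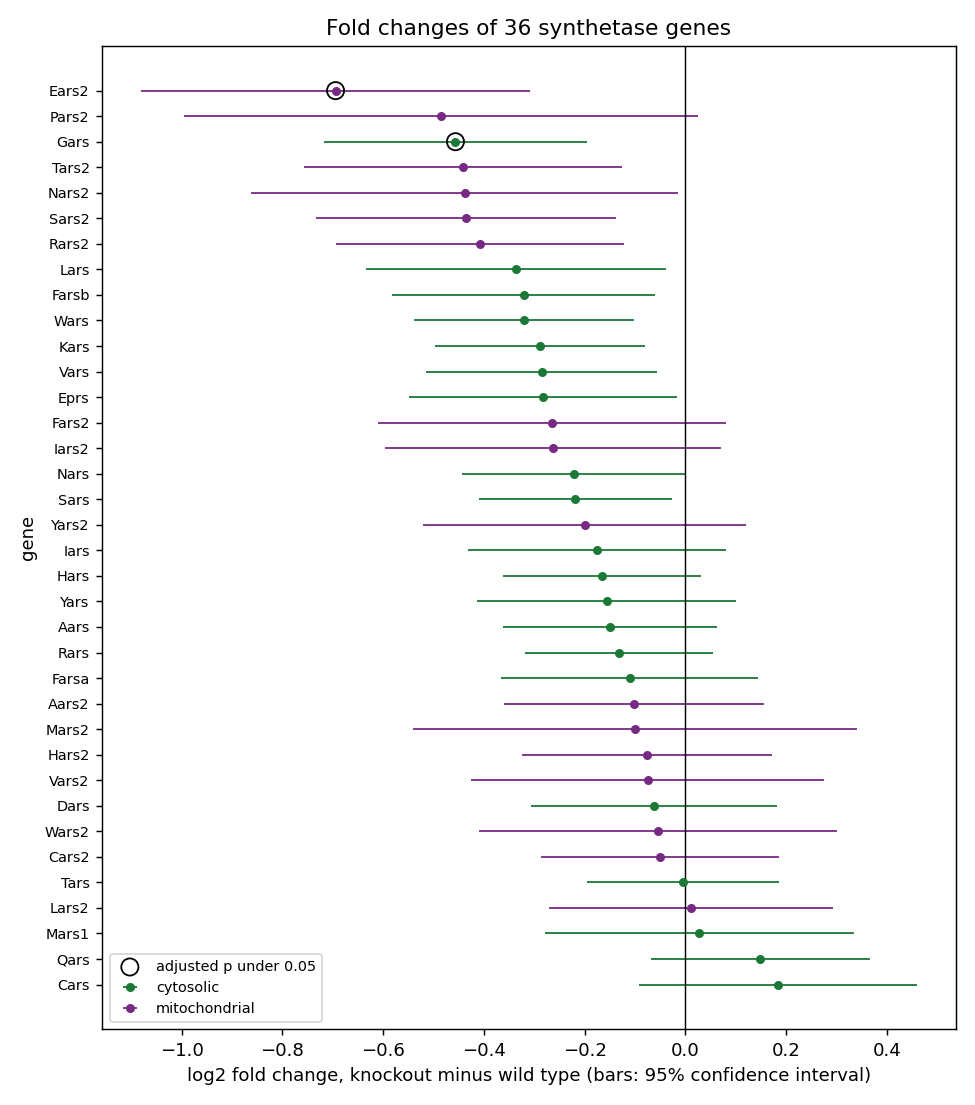
The x axis gives the log2 fold change of knockout against wild type with its 95% confidence interval for 36 genes on the y axis, cytosolic in green and mitochondrial in purple. The circled genes Ears2 and Gars passed the test, and 32 of the 36 points lie below 0.

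Of the mitochondrial enzymes 1 of 17 fell, Ears2, and 16 of 17 had a negative log2 fold change, with a median of -0.26 against -0.17 for the cytosolic ones. Those nearest to Ears2 in size charge proline, threonine, asparagine and serine. Tars2, the mitochondrial threonyl enzyme, had 89.2, 75.2 and 82.1 CPM in wild type and 62.2, 69.8 and 49.6 CPM in knockout. The groups did not overlap, and library 32 was the knockout library nearest to wild type. The log2 fold change was -0.44 (95% interval -0.76 to -0.13; edgeR adjusted p = 0.0861). Sars2, the seryl enzyme, had 28.79, 33.23 and 31.01 CPM against 22.2, 25.7 and 20.9 CPM, a log2 fold change of -0.43 (edgeR adjusted p = 0.0764). Library 32 again stood nearest to wild type, below it without overlap.

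Nars2, the asparaginyl enzyme, had nearly equal levels in wild type, 12.6, 12.9 and 12.9 CPM, and a wider range in knockout, 9.15, 11.1 and 8.09 CPM. Its log2 fold change was -0.44 (edgeR adjusted p = 0.173). Pars2, the prolyl enzyme, had 9.03, 10.7 and 10.02 CPM in wild type and 6.25, 8.83 and 6.17 CPM in knockout. Library 32 lay just under the lowest wild-type library, and the log2 fold change was -0.48 (95% interval -0.99 to 0.03; edgeR adjusted p = 0.204). Rars2, the arginyl enzyme, had 27.9, 27.5 and 26.8 CPM in wild type and 20.0, 22.8 and 19.1 CPM in knockout. Its groups were clearly apart, with a log2 fold change of -0.41 (edgeR adjusted p = 0.0812).

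Fars2 and Yars2, for phenylalanine and tyrosine, were below wild type without overlap at log2 fold changes of -0.26 and -0.20. This brings such mitochondrial genes to 8 of 17 (47.1%), beside 16.5% of all genes tested. Iars2, for isoleucine, was at -0.26 with overlap. Aars2, Mars2, Hars2, Vars2, Wars2 and Cars2 lay between -0.10 and -0.05. Lars2, the leucyl enzyme, had 60.9, 61.9 and 75.7 CPM in wild type and 59.6, 67.4 and 73.0 CPM in knockout. Its 95% interval ran from -0.27 to 0.29 around a log2 fold change of 0.01, whose sign changed with the scaling, the filter and the library left out. Under DESeq2, Tars2, Sars2, Rars2 and Wars passed the threshold beside Ears2 and Gars, and under limma-voom Gars did not (adjusted p = 0.0543). DESeq2 also called more genes in general, with 6.6% of all genes tested lower, against 3.12% by edgeR's test.

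Both compartments had a lower summed level in the knockout libraries, by about the same share. Cytosolic enzymes summed to 2940, 2695 and 3026 CPM in wild type and 2573, 2605 and 2425 CPM in knockout. The means were 2887 ± 171 and 2534 ± 96.2 CPM, 12.2% lower, and wild-type library 27 was the one closest to the knockout libraries. Mitochondrial enzymes summed to 648.4, 654.3 and 648.4 CPM in wild type and 541.8, 620.2 and 513.7 CPM in knockout. The means were 650 ± 3.37 and 559 ± 55.2 CPM, 14.1% lower, and the knockout libraries were far more spread than the wild-type ones. The ratio of the cytosolic to the mitochondrial sum was 4.53, 4.12 and 4.67 in wild type and 4.75, 4.20 and 4.72 in knockout, so the groups overlapped.

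The median log2 fold changes of the compartments differed by 0.092, cytosolic minus mitochondrial. This gap was 0.0086 when wild-type library 27 was left out, 0.032 when knockout library 31 was, 0.049 when 32 was, and 0.026 with library 25 as the only wild type, so its size rested on single libraries. Per library, the median deviation from the wild-type mean on the log2 scale was -0.15 for cytosolic and -0.31 for mitochondrial genes in knockout library 31. It was -0.14 and -0.06 in library 32, and -0.23 and -0.42 in library 40. Library 32 was thus the knockout library nearest to wild type for the mitochondrial enzymes, and the highest of the 3 for 10 of the 17. Within knockout the same order, 40, 31, 32, held for the summed neutrophil markers, at 15380, 9881 and 8504 CPM. It also held for the summed monocyte and macrophage markers, at 4754, 3415 and 2732 CPM. In wild-type libraries 25, 27 and 29 the neutrophil markers summed to 603.9, 1564 and 2242 CPM. There the median deviations were -0.013, 0.012 and -0.0018 for mitochondrial and 0.050, -0.078 and 0.075 for cytosolic genes, without that order. The part of these markers in the synthetase values was not tested.

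By class, 18 of 18 class II genes and 14 of 18 class I genes had a negative log2 fold change, against 51.2% of all genes tested. The medians were -0.24 and -0.14. Among the class II genes Tars was at -0.0050, and its sign changed with the scaling and with the library left out. Farsa and Farsb, subunits of the same enzyme, are counted as 2 genes. Every knockout library lay below every wild-type library for 11 class II genes (61.1%) and 6 class I genes (33.3%). The same held for 16.5% of all genes tested and for 18.1% of those within the members' range of mean level. In each class 1 gene fell, Gars in class II and Ears2 in class I. Eprs, which joins a class I and a class II enzyme in 1 protein, was left out of this count, and the difference between the classes was not tested. Class II holds, among those named above, Gars, Kars, Farsb, Tars2, Sars2, Nars2 and Pars2. The members above 0, Cars, Qars, Mars1 and Lars2, are all of class I. The signs of Mars1 and Lars2 also changed with the scaling.

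Levels between genes were compared per kilobase of the deposited gene length (CPM per kilobase). What this length counts was not stated, and it can exceed that of the main transcript. It was 18102 bases for Eprs, 11294 for Mars2 and 6967 for Nars2. The ranks and ratios between genes below depend on these lengths and are less certain than differences between groups. The median wild-type level was 25.5 for the cytosolic and 6.21 for the mitochondrial genes, and the knockout medians were 22.9 and 6.01. In wild type, Vars stood highest at 75.1 ± 5.11 (SD, n = 3) CPM per kilobase, followed by Gars at 57.7 ± 7.57 and Nars at 53.6 ± 5.12. Gars and Nars differed by less than these SDs, while Vars was above Gars, and Nars above Dars (47.5 ± 4.67), by more than either SD. The lowest cytosolic gene was Cars, at 5.73 ± 0.688 CPM per kilobase, below Yars at 11.9 ± 0.854 and Eprs at 12.4 ± 1.58. The highest mitochondrial gene was Iars2, at 13.7 ± 1.09, and the next, Tars2 at 11.9 ± 1.01 and Vars2 at 10.2 ± 0.604, were each lower than the one before by more than its own SD. The lowest were Mars2 at 2.27 ± 0.415, Wars2 at 2.17 ± 0.122 and Nars2 at 1.84 ± 0.0245 CPM per kilobase. Ears2, at 3.72 ± 0.300 in wild type, had 2.30 ± 0.338 CPM per kilobase in knockout, a level near that of Pars2 (2.29 ± 0.489).

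**Figure D3:**
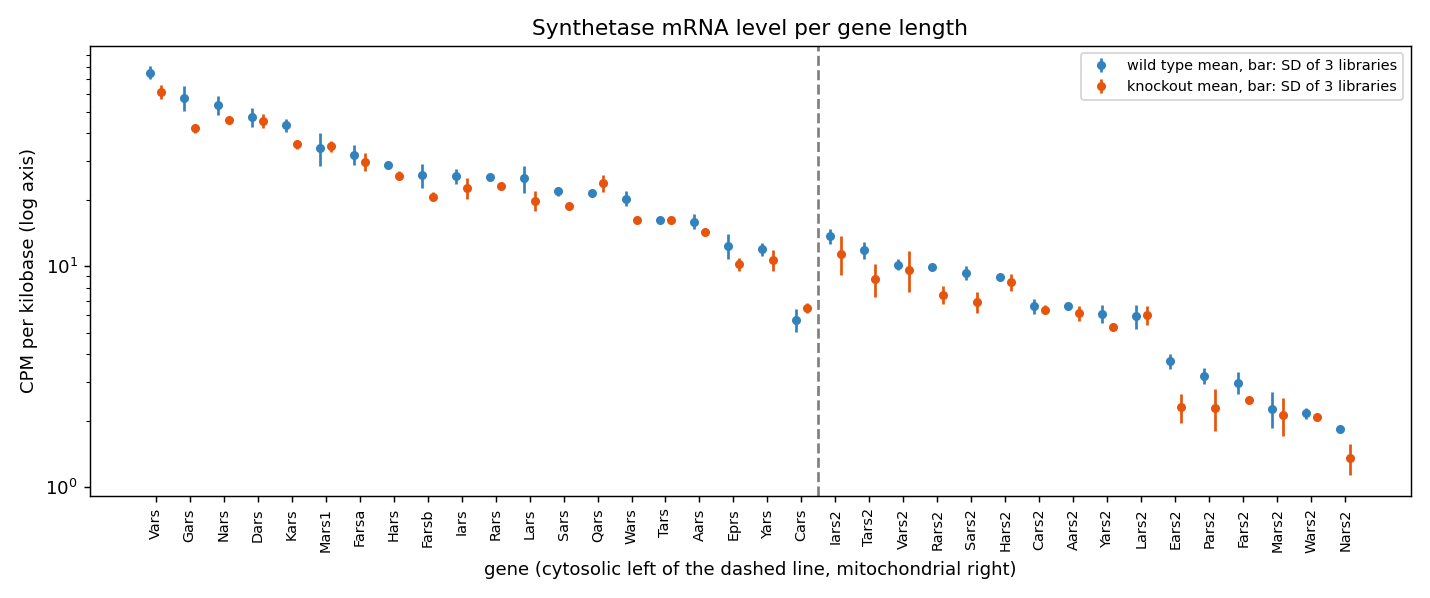
The y axis gives CPM per kilobase of gene length on a log scale for 36 genes on the x axis, as the mean of 3 wild-type (blue) and 3 knockout (orange) libraries, with bars for the SD. Cytosolic genes, left of the dashed line, run from 75.1 for Vars to 5.73 for Cars in wild type, and mitochondrial genes from 13.7 for Iars2 to 1.84 for Nars2.

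For a given amino acid the cytosolic enzyme had the higher level per kilobase of deposited length in 17 of 18 pairs in wild type and in all 18 in knockout. The exception was cysteine, with a ratio of Cars to Cars2 of 0.869 in wild type and 1.02 in knockout. The ratio was greatest for asparagine, 29.1 for Nars to Nars2 in wild type, and among the others smallest for threonine, 1.37 for Tars to Tars2. Eprs enters as the partner of both Ears2 and Pars2, and Fars2 as that of both Farsa and Farsb, so the pairs are not all independent.

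The log2 ratio of cytosolic to mitochondrial CPM within a library does not depend on how libraries are scaled. It was higher in knockout without overlap for 4 pairs and lower for 2, and it overlapped in 12. No share over pairs of other genes was worked out, so these counts have no background beside them. For threonine the log2 ratio of Tars to Tars2 was 0.14, 0.29 and 0.23 in wild type and 0.64, 0.49 and 0.88 in knockout. All knockout libraries were above all wild-type libraries, with Tars at a nearly constant level and Tars2 lower. The log2 fold changes of the 2 genes differed by 0.44, and by 0.34 to 0.53 when 1 library was left out. For glutamate the log2 ratio of Eprs to Ears2 was 3.75, 3.20 and 3.67 in wild type and 3.79, 3.99 and 4.13 in knockout. The groups did not overlap, but library 31 was only just above library 25. The difference of the log2 fold changes was 0.41, and 0.25 without wild-type library 27.

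For leucine the difference had the opposite sign. The log2 ratio of Lars to Lars2 was 1.28, 0.86 and 0.91 in wild type and 0.85, 0.80 and 0.38 in knockout. Only wild-type library 25 and knockout library 40 stood well apart from the rest, and the difference of -0.35 shrank to -0.22 without the first and -0.20 without the second. Against library 25 alone it was -0.61. Tryptophan showed the same direction, with log2 ratios of Wars to Wars2 of 2.48, 2.44 and 2.39 in wild type and 2.08, 2.17 and 2.26 in knockout. Arginine and serine showed that of threonine, with higher ratios in every knockout library than in every wild-type library. Over all 18 pairs the difference was positive in 12 and negative in 6, with a median of 0.14. The pairs named here are those with the largest differences and those without overlap, so their values are descriptions.

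**Figure D4:**
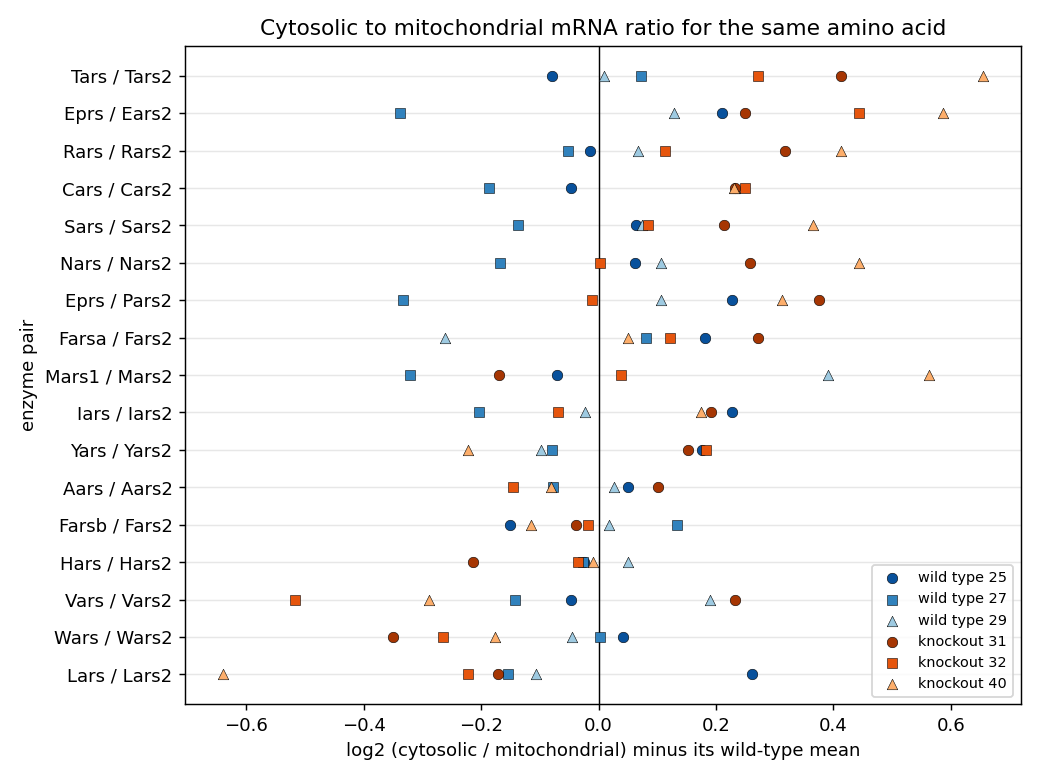
The x axis gives the log2 ratio of cytosolic to mitochondrial CPM in each library minus its wild-type mean, for 17 of the 18 enzyme pairs on the y axis, with wild type in blue and knockout in orange. The knockout points lie right of all wild-type points for Tars / Tars2, Eprs / Ears2, Rars / Rars2 and Sars / Sars2 and left of them for Lars / Lars2 and Wars / Wars2.

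Genes that work beside the synthetases were read in the same way. The background for their counts is the share of all 15963 genes tested, of which 3.12% fell, 5.45% rose and 51.2% were negative. Of the 3 scaffold genes of the multisynthetase complex 0 passed, with log2 fold changes of -0.31 for Aimp1 (edgeR adjusted p = 0.117) and -0.24 for Aimp2 (edgeR adjusted p = 0.357). Of 12 genes for tRNA amidation, formylation, selenocysteine and editing 0 passed and all 12 were negative, with a median of -0.29. The lowest was Pstk, the kinase that acts on seryl-tRNA for selenocysteine, at -1.05 (95% interval -1.73 to -0.38; edgeR adjusted p = 0.0644). Its partner in that path, Sepsecs, was at -0.43 (edgeR adjusted p = 0.0868). Under DESeq2 both passed, with adjusted p of 0.00656 and 0.0477.

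Of 28 tested genes of tRNA processing, modification and export, 3 fell and 0 rose, and 22 were negative, with a median of -0.29. Beside these counts, 3.12% of all genes tested fell, 5.45% rose and 51.2% were negative. Trmt1, a guanine methyltransferase of tRNA, went from 110 ± 7.44 to 80.1 ± 5.79 CPM (log2 fold change -0.46, edgeR adjusted p = 0.0292). Rpp14, a subunit of RNase P, had a log2 fold change of -0.45 (edgeR adjusted p = 0.0382). Both lost the call without knockout library 40, with edgeR adjusted p of 0.1002 and 0.124. Trmt1 also lost it without library 25, 29 or 31, with edgeR adjusted p of 0.0693, 0.0768 and 0.0706. Rpp14 lost it whichever library was left out. Of 20 genes of RNA polymerase III and its factors, which transcribe the tRNA genes, 1 fell, a share close to the background of 3.12%. This was Polr3e, at -0.45 (edgeR adjusted p = 0.0468). It kept the call only without knockout library 32 when 1 library was left out, and it was at 0.142 without library 40. Of 9 elongation factors 0 passed and 8 were negative, with the mitochondrial factors Tsfm at -0.48 (edgeR adjusted p = 0.0884, DESeq2 adjusted p = 0.0377) and Gfm1 at -0.28 (edgeR adjusted p = 0.102).

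Atf4 and Myc, whose products are known regulators of synthetase genes, had log2 fold changes of opposite sign, and neither passed edgeR's test with all 6 libraries and the filter on low counts. Atf4 had 318.0, 265.6 and 383.6 CPM in wild type and 479.7, 439.2 and 694.9 CPM in knockout. All knockout libraries were above all wild-type libraries, with library 40 the highest, and the log2 fold change was 0.74 (95% interval 0.27 to 1.21; edgeR adjusted p = 0.0643, DESeq2 adjusted p = 0.00666). Myc was at -0.43 (edgeR adjusted p = 0.115, and 0.0397 with no filter on low counts), with 223.3, 255.5 and 292.8 CPM against 187.0, 225.9 and 158.6 CPM. Of 30 tested genes of the amino acid response and ATF4 targets, 0 passed in either direction, with a median of -0.04. In 6 of them (20.0%) every knockout library was below wild type and in 6 above it, close to the 16.5% and 17.2% of all genes tested. Nupr1, a stress-induced target, was at 2.14 (edgeR adjusted p = 0.0503), and Asns, which makes asparagine and lies on chromosome 6, at -0.66 (edgeR adjusted p = 0.0627). Under DESeq2 both passed, with adjusted p of 0.00357 and 0.0139, and against wild-type library 25 alone Asns was at -0.89. The 5 synthetases with the amino acid response element in their promoter were at -0.46 for Gars, -0.18 for Iars, -0.16 for Yars, -0.15 for Aars and -0.0050 for Tars, the last changing sign with the scaling and the library left out. Of 13 tested interferon-gamma response genes 0 passed, with Irf1 at 0.93 (edgeR adjusted p = 0.0682) and Psmb9 at -0.38 (edgeR adjusted p = 0.0769), beside -0.32 for Wars. Under DESeq2 Irf1 and Psmb9 passed, with adjusted p of 0.00329 and 0.0472.

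**Figure D5:**
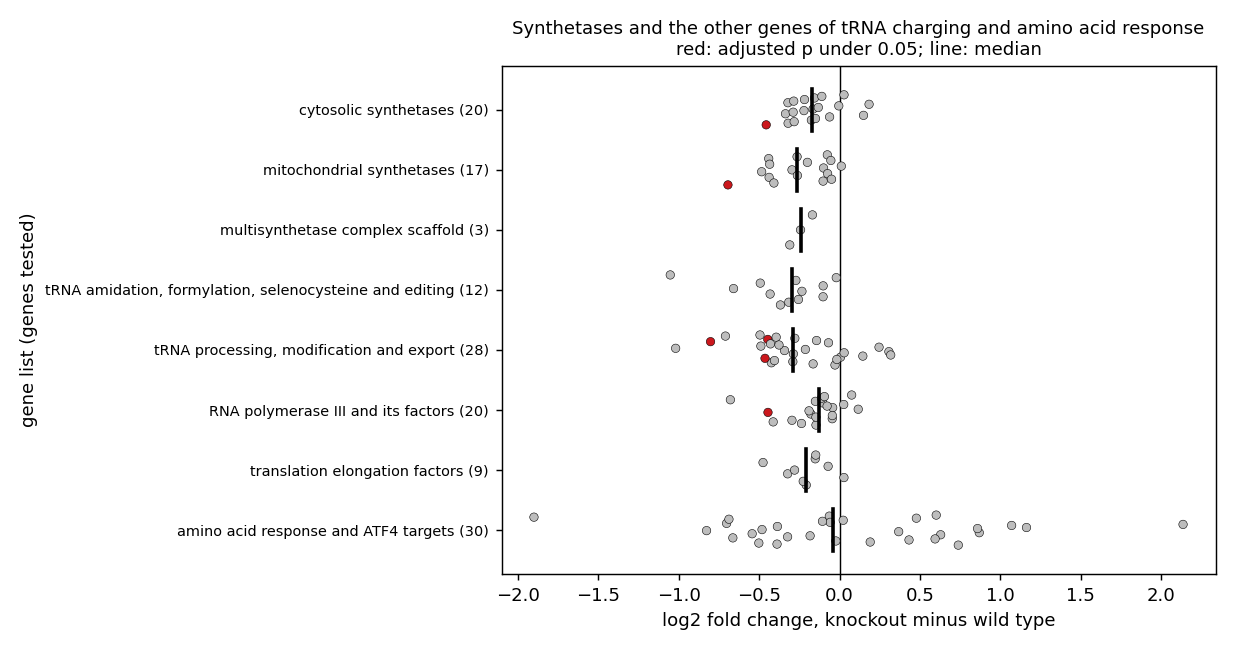
Each point is 1 gene, the x axis gives its log2 fold change of knockout against wild type, and the y axis gives the lists with the number of genes tested, red marking an adjusted p under 0.05 and the bar the median. The synthetase medians of -0.17 and -0.26 sit among those of the other tRNA lists, and the amino acid response genes spread from -1.90 to 2.14.

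Reads in places where genes overlap may have been counted for either gene. The table's coordinates put 20 members over another annotated gene, and for 7 of them (Mars1, Iars2, Hars, Hars2, Cars2, Ears2 and Fars2) that gene held at least 10% as many counts. Hars and Hars2 overlap each other by 198 bases in head-to-head order, and Iars2 overlaps Rab3gap2 by 2034 bases. Rab3gap2 was at a log2 fold change of -0.18, Naxd, beside Cars2, at -0.23 and Lyrm4, beside Fars2, at -0.10, and none of them passed edgeR's test (adjusted p 0.237, 0.199 and 0.809). The values of these members are therefore less certain than those of the others.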

How the data were processed

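Total RNA of 6 bone marrow samples was sequenced, 3 per genotype label. The authors deposited whole-number counts per gene, not normalized, and a gene length in bases. The submitters' processing notes name Salmon, limma, GRCm38 and mm10 without roles; whether the counts are rounded estimates, and any use of strand, were not stated in the labels. Coordinates are those of the deposited table, with no build named for them; only the promoters carry a build.

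Genes were kept by filterByExpr (minimum count 10, total 15), leaving 15963. TMM factors scaled the libraries, and the test was edgeR's quasi-likelihood F test with robust shrinkage (edgeR 4.0.16 in R 4.3.3) on all 6 libraries, knockout against wild type, with no covariate, and Benjamini-Hochberg adjustment over all genes tested (threshold 0.05). SE and 95% intervals came from the fit. CPM values, and their means and SDs, use the TMM factors. The procedure was tested on simulated data of the same size. Of simulated 4-fold changes 92.4% were called, of 2-fold changes 66.9% and of 1.5-fold changes 18.8%. False calls made up 9.2% of the calls, more than the threshold of 0.05 allows.

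Members and lists were chosen with earlier results of these data known, so no test was made over a list. Named were all members passing the test; Gars, Qars, Wars and Kars; the 4 cytosolic and 4 mitochondrial members with the largest absolute change among the rest; the 3 pairs that differed most; of each list up to 4 called genes or the 2 with the smallest p; and Rbm5, Myc and Atf4. Other members were given after their values were seen, with alternatives added then. Alternatives were RLE, upper-quartile and total-count scaling, other filters, no robust shrinkage, DESeq2 1.42.0, limma-voom (limma 3.58.1), each library left out, and wild-type libraries 27 and 29 left out together. No pair of libraries agreed within sampling noise (lowest chi-square per degree of freedom 50.5). A comparison of protein sequences was not made here. Of the members and of the listed genes, 1 each is counted but not reported here by name.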

Additional observations from a re-analysis of the deposited data

How the results depend on the processing

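No paired analysis was possible because the title numbers are not shared between the groups. With total counts in place of TMM, 682 genes were lower and 597 higher, against 498 and 870, the median of all genes moved from -0.01 to -0.13, and the cytosolic median from -0.17 to -0.29. With no filter 836 genes were lower. DESeq2 gave 1054 lower and 1553 higher. Leaving out 1 library gave 102 to 440 lower and 245 to 787 higher, and leaving out wild-type libraries 27 and 29 together 148 and 305.

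The count of cytosolic enzymes that fell, 1, became 2 with total counts (Vars added) and 2 with DESeq2 (Wars added). It was 0 without robust shrinkage, 0 with limma-voom, 0 without wild-type libraries 27 and 29, and 0 with Gars and Kars left out. Leaving out 1 library gave 0 to 1. The mitochondrial count, 1, became 2 with no filter and 4 with DESeq2, was 0 without libraries 27 and 29, and ranged from 0 to 0 when 1 library was left out. The count of members that rose was 0 in every alternative run. The median log2 fold change of the mitochondrial enzymes, -0.26, moved most with total counts, to -0.38. In every alternative it moved by less than 0.186, the SD of the median deviations of the knockout libraries. The median deviations of the wild-type libraries ran only from -0.013 to 0.012, and the move with total counts was larger than that range.

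Genes near 0 changed sign. Tars became 0.0014 with RLE factors and 0.0014 with DESeq2, and ran from -0.047 to 0.029 when 1 library was left out. Mars1 became -0.018 with upper-quartile factors, -0.097 with total counts and -0.16 without libraries 27 and 29, and ran from -0.12 to 0.12 with 1 library left out. Lars2 became -0.032, -0.11 and -0.0082 with upper-quartile factors, total counts and no filter, and ran from -0.057 to 0.12. With 1 library left out Mars2 ran from -0.23 to 0.047, Vars2 from -0.24 to 0.065, Cars2 from -0.10 to 0.012 and the B cell marker Cd79b from -1.11 to 0.38, the last reaching 0.66 without 27 and 29. The causes were not tested. Each member had at least 151 counts in its lowest library, and precision also rests on only 3 libraries per group.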
